A study of Mus musculus with 12 samples.

Results

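The secreted matricellular genes *Ccn1*, *Ccn2*, *Thbs1*, *Thbs2*, *Thbs3* and *Thbs4* were followed in mouse hippocampal slices after chemical long-term potentiation (LTP). They are 6 of the 41091 gene IDs counted in each of the deposited tables, and the set was selected on the difference between LTP and control slices at 3 hr, which was large for *Ccn1* and *Thbs1*. For that reason the 3 hr LTP values of the members are given as a description, without a test, while the 1 hr comparison was not part of the selection and was tested. RNA-seq was performed on acute hippocampal mini-slices without the dentate gyrus, which had been trimmed. The mice were C57BL/6, of wild type genotype, 2 to 3 months old and male. LTP slices received forskolin (50 uM), an activator of adenylyl cyclase, for 5 min and then forskolin with 30 mM KCl and 10 mM calcium, for 10 min in all. Control slices were given only vehicle (DMSO at 0.2%) over the same 10 min. Slices were frozen 1 hr or 3 hr afterwards, which gave an LTP and a control group at each time, 4 groups of 3 libraries in all, and the slices of an animal were divided between LTP and control. The study's methods state that sequenced material was picked for a rise of *Arc* RNA by qPCR, so these LTP slices are responders by selection. All 6 members passed the filter on low counts in each comparison.

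Matricellular proteins are secreted into the extracellular matrix, where they signal through cell surface receptors rather than provide structure. Thrombospondins bind CD47, CD36, integrins and the calcium channel subunit encoded by *Cacna2d1*, and astrocyte thrombospondins are known to promote the formation of excitatory synapses. The CCN proteins bind integrins and heparan sulfate, and *Ccn1* and *Ccn2* are classical targets of YAP/TAZ with TEAD factors, of serum response factor (SRF) with its MRTF coactivators and, for *Ccn2*, of TGF-beta signaling. *Thbs1* in turn can activate latent TGF-beta.

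The members lie apart in the genome (GRCm38, GENCODE M21). *Ccn1* (ENSMUSG00000028195.3) is at chr3:145646976-145649981 on the minus strand, and its exons overlap those of no other gene. *Thbs1* (ENSMUSG00000040152.8) is at chr2:118111876-118127133 on the plus strand, and 3.43% of its exonic bases are shared with the antisense gene *Gm29233*, which had 0 counts in all 12 libraries. *Ccn2* (ENSMUSG00000019997.6, chr10:24595442-24598683, plus strand) shares 23.2% of its exonic bases with the antisense gene *Gm15270*, which had 4 to 14 counts per library. Since use of strand in the counting is not stated, the low counts of *Ccn2* are uncertain. *Thbs2* (ENSMUSG00000023885.8) is at chr17:14665500-14694235 and *Thbs4* (ENSMUSG00000021702.7) at chr13:92751590-92794818, both on the minus strand and without shared exons. *Thbs3* (ENSMUSG00000028047.6, chr3:89215180-89226837, plus strand) shares 6.59% of its exonic bases with the antisense gene *Mtx1*. *Mtx1* had 689 to 1281 counts per library, beside 706 to 1257 for *Thbs3*, so the uncertainty about strand holds for *Thbs3* too.

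Promoter windows of 300 bases, 250 of them upstream of the transcription start, were taken from RefSeq (GRCm38.p6) for the 4 members that the table held, *Ccn1*, *Thbs2*, *Thbs3* and *Thbs4*. *Ccn2* and *Thbs1* had no entry. The windows were searched on both strands for the cAMP response element (CRE, TGACGTCA), its short form TGACG, the AP-1 site TGANTCA, the TEAD site GGAATG and the CArG box bound by SRF. The short CRE form overlaps the full CRE by construction. *Ccn1*, the member with a 1 hr and 3 hr LTP difference whose promoter was in the table, is shown with *Thbs4*, the only other member with a match, as 200 bases each ending next to the start, with the motif letters in capitals. The *Ccn1* stretch is chr3:145649986-145650185 and the *Thbs4* stretch chr13:92794819-92795018, both on the minus strand.
Ccn1: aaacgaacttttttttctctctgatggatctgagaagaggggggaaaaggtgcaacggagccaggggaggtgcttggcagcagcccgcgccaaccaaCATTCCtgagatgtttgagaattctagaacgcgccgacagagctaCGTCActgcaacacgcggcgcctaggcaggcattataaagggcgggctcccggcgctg
Thbs4: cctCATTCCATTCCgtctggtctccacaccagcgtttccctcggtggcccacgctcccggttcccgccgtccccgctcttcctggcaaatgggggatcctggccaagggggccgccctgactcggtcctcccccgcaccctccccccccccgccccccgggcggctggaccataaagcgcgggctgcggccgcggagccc
In *Ccn1* the short CRE form, read here as its reverse complement CGTCA, lies at -58 to -54 from the start, and a TEAD site, read as CATTCC, at -103 to -98. *Thbs4* had 2 overlapping TEAD matches, at -197 to -192 and -192 to -187, and *Thbs2* and *Thbs3* had no match to any of the 5 motifs. The *Thbs2* window starts from a RefSeq start whose bases were not found in the GENCODE M21 transcripts of the gene. Of 32851 RefSeq windows of the same length, 20.8% held the short CRE form, 14.7% the TEAD site, 7.81% the AP-1 site, 1.79% the full CRE and 1.63% the CArG box. A match is only a description of the letters in the window.

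Levels are given as CPM, counts scaled to library size with TMM, and replicates are listed in the order of the animal numbers 1, 2 and 3. *Ccn1* was at 24.5, 35.3 and 34.9 CPM in the 1 hr controls and at 55.5, 52.8 and 54.0 CPM in the 1 hr LTP libraries. Every 1 hr LTP library lay above every 1 hr control library at 35.3 CPM or less. The control of animal 2 at 1 hr was set aside by the study as an outlier of its clustering and was left out of the fits here. *Ccn1* rose 1.83-fold at 1 hr (log2 fold change 0.88, SE 0.115, edgeR quasi-likelihood adjusted p = 0.00102, 2 control and 3 LTP libraries). At 3 hr it was at 20.7, 18.4 and 16.5 CPM in controls and at 70.9, 60.3 and 63.3 CPM after LTP. The 3 hr groups were far apart, with a log2 difference of 1.82 (SE 0.101), or 3.54-fold, rank 16 of 17508 genes in order of rise.

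*Thbs1*, which encodes a trimeric thrombospondin, was at 15.1, 18.7 and 16.3 CPM in the 1 hr controls and at 33.9, 33.8 and 30.1 CPM after LTP. Again no LTP library came near a control library. *Thbs1* rose 2.09-fold at 1 hr (log2 fold change 1.06, SE 0.0941, edgeR adjusted p = 1.39e-05). At 3 hr the controls held 41.9, 34.2 and 23.3 CPM and the LTP libraries 122, 108 and 114 CPM. The lowest 3 hr LTP library was above all 3 hr controls, although the controls themselves spread widely, and the log2 difference was 1.80 (SE 0.176), or 3.49-fold, rank 18 of 17508.

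Within animals, both genes were higher after LTP in 3 of 3 animals at each time. The log2 ratio of LTP to control for *Ccn1* was 1.18, 0.58 and 0.63 at 1 hr, where animal 2 includes the library set aside, and 1.77, 1.71 and 1.93 at 3 hr. For *Thbs1* it was 1.16, 0.85 and 0.88 at 1 hr and 1.53, 1.66 and 2.28 at 3 hr. For both genes the smallest ratio at 3 hr exceeded the largest at 1 hr.

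**Figure D1:**
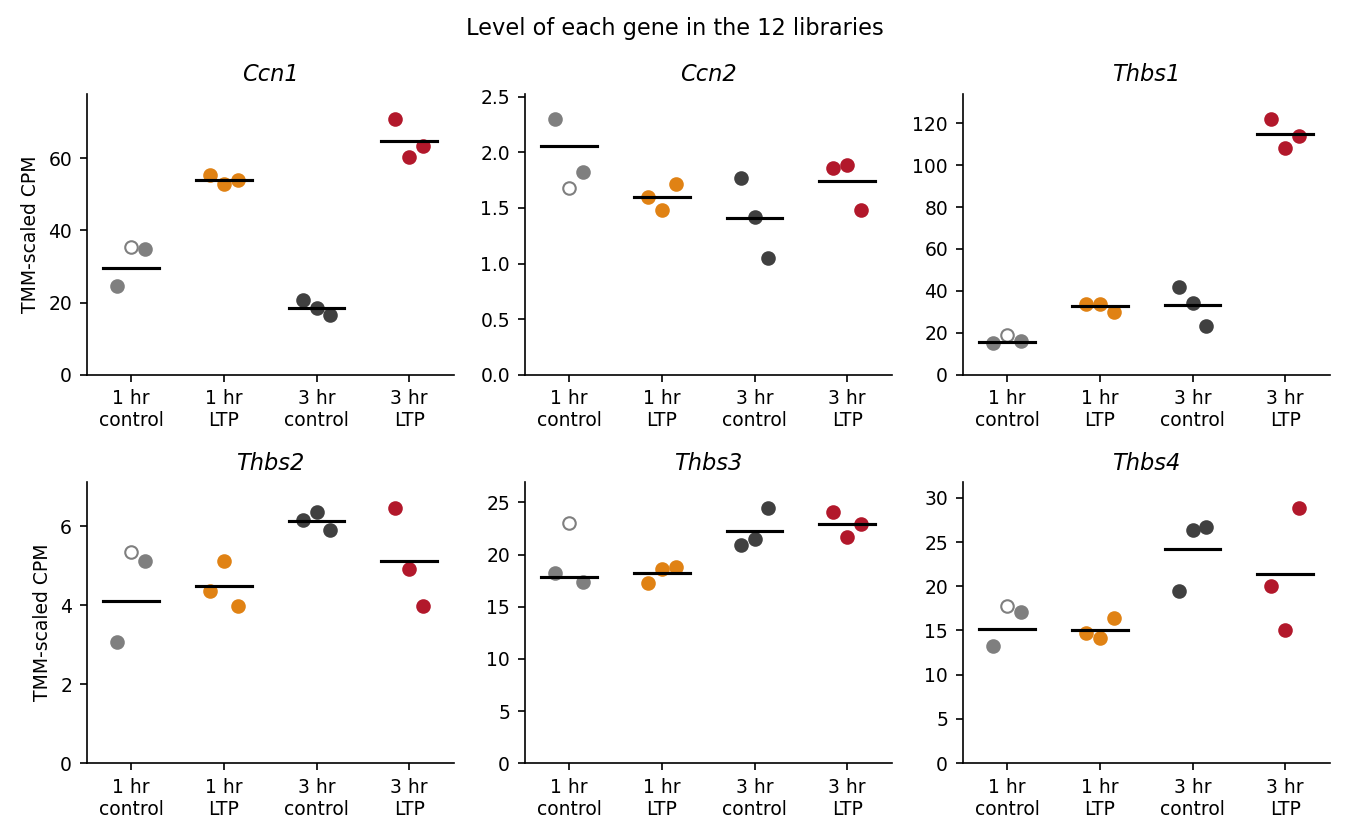
TMM-scaled CPM of the 6 members (vertical axis, starting at 0) in each of the 12 libraries, by group; filled points are libraries, the open point is 1 hr control replicate 2, which was left out of the fits and of the mean, and bars are group means. *Ccn1* and *Thbs1* sit higher in LTP than in control libraries at both times, up to 70.9 and 122 CPM at 3 hr, while the groups of *Thbs2*, *Thbs3* and *Thbs4* overlap at each time.

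The control and LTP levels of the 2 genes differed between the times in unlike ways. Between 1 hr and 3 hr, mean *Ccn1* changed by a factor of 0.623 in controls and 1.2 in LTP slices. The 3 hr LTP libraries of *Ccn1*, from 60.3 CPM, lay above those of 1 hr, which reached 55.5 CPM, and its 3 hr controls lay below its 1 hr controls. Mean *Thbs1* was higher at 3 hr in both arms, by a factor of 2.11 in controls and 3.53 in LTP slices. The 3 hr LTP effect exceeded the 1 hr effect by 0.95 (SE 0.173) on the log2 scale for *Ccn1* and by 0.75 (SE 0.224) for *Thbs1*. These differences include the contrast on which the genes were selected and are not tested. For *Ccn1* the value depended on 1 hr control replicate 3, without which it was 0.65.

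*Ccn2*, the closest relative of *Ccn1* among the members and often regulated with it, had the lowest counts of the members, 54 to 89 per library. It was at 2.30, 1.68 and 1.82 CPM in the 1 hr controls and at 1.60, 1.48 and 1.72 CPM after LTP. The 2 fitted controls were above the 3 LTP libraries, but the difference did not pass the test (log2 fold change -0.35, SE 0.229, interval of 2 SE from -0.81 to 0.11, edgeR adjusted p = 0.889). It was -0.18 without 1 hr control replicate 1 and -0.51 without replicate 3. At 3 hr it was at 1.77, 1.42 and 1.05 CPM in controls and at 1.86, 1.89 and 1.48 CPM after LTP, with overlapping groups and a log2 difference of 0.33 (SE 0.215), which ran from 0.15 without 3 hr control replicate 3 to 0.52 without 3 hr control replicate 1. A rise of *Ccn2* as large as that of *Ccn1* at 1 hr lay outside the interval.

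*Thbs2*, like *Thbs1* a trimeric thrombospondin, was at 3.07, 5.34 and 5.12 CPM in the 1 hr controls and at 4.37, 5.11 and 3.97 CPM after LTP. The groups overlapped (log2 fold change 0.14, SE 0.207, interval of 2 SE from -0.28 to 0.55, edgeR adjusted p = 0.964), and the sign depended on single controls, with -0.18 without 1 hr control replicate 1 and 0.55 without replicate 3. The 3 hr controls held 6.16, 6.36 and 5.90 CPM and the 3 hr LTP libraries 6.47, 4.92 and 3.98 CPM, a log2 difference of -0.24 (SE 0.162), ranging from -0.45 (3 hr LTP replicate 1 left out) to -0.10 (replicate 3 left out). The LTP libraries spread over and below the narrow range of the controls.

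*Thbs3* and *Thbs4* encode pentameric thrombospondins. *Thbs3* was at 18.2, 23.0 and 17.4 CPM in the 1 hr controls and at 17.3, 18.6 and 18.8 CPM after LTP, and at 20.9, 21.5 and 24.5 CPM against 24.1, 21.7 and 22.9 CPM at 3 hr. LTP and control libraries overlapped at both times (1 hr log2 fold change 0.05, SE 0.0937, interval of 2 SE from -0.14 to 0.23, edgeR adjusted p = 0.974; 3 hr log2 difference 0.05, SE 0.0874). *Thbs4* was at 13.3, 17.8 and 17.1 CPM in the 1 hr controls and at 14.7, 14.2 and 16.4 CPM after LTP, a ratio of 0.999 with an interval of 2 SE from -0.24 to 0.23 on the log2 scale (edgeR adjusted p = 0.999), and from -0.17 to 0.19 when 1 library was left out. At 3 hr it was at 19.5, 26.4 and 26.7 CPM in controls and at 20.0, 15.1 and 28.9 CPM after LTP, and the 3 hr LTP libraries held both the lowest and the highest value of that time point (log2 difference -0.17, SE 0.217). Without 3 hr LTP replicate 3 the difference was -0.46 and without 3 hr LTP replicate 2 it was 0.03.

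Counted together, 2 of the 6 members were called at 1 hr (fold change over 1.2 at an adjusted p under 0.1), both higher, where 0.789% of 17736 genes were called, 0.778% higher and 0.0113% lower. At 1 hr 3 of the 6 members had LTP and control groups that did not overlap among the fitted libraries, beside 22.1% of all genes. At 3 hr 2 of the 6 were past the same thresholds, beside 6.60% of 17508 genes (5.07% higher, 1.53% lower), and 2 of the 6 had groups that did not overlap, beside 26.5%, and since the selection used this contrast nothing is read from these counts.

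**Figure D2:**
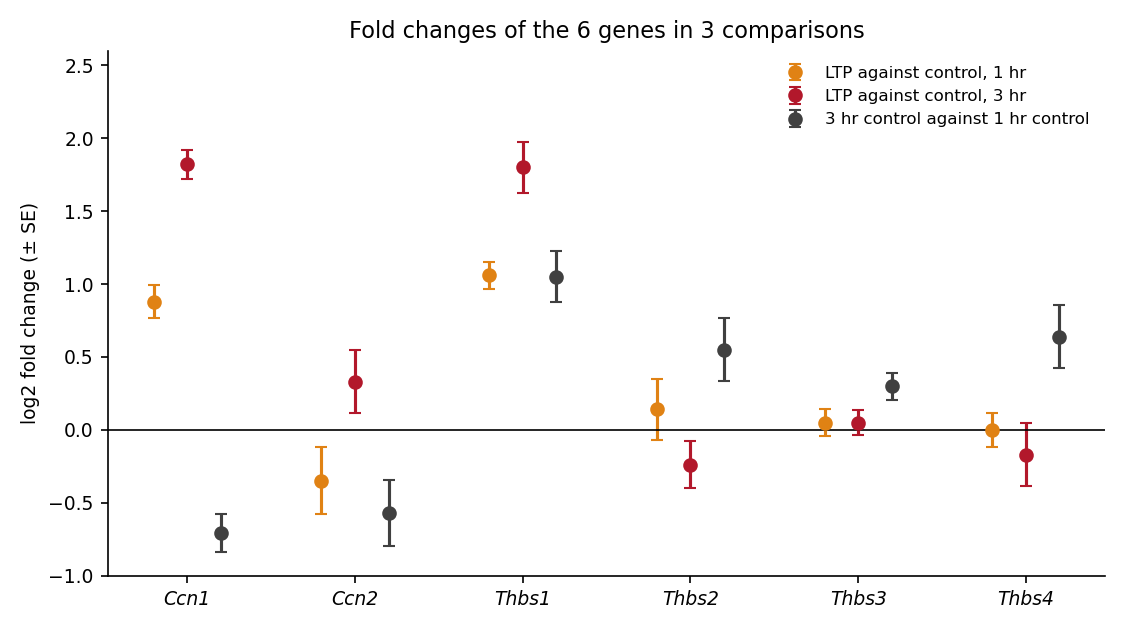
Log2 fold change of each member (vertical axis, error bars ± 1 SE) for LTP against control at 1 hr and at 3 hr and for 3 hr against 1 hr controls. *Ccn1* and *Thbs1* are at 0.88 and 1.06 at 1 hr and at 1.82 and 1.80 at 3 hr, where *Thbs2*, *Thbs3* and *Thbs4* are within 0.24 of 0.

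Time after the treatment was examined by comparing the 3 hr with the 1 hr controls, both given vehicle. Whether the same animals gave both is not stated, so time and animal cannot be told apart in this comparison. It was a broad difference, with 32.8% of 18584 genes called, 16.1% higher and 16.8% lower, so that a call of a member is no unusual result. *Thbs4* rose 1.56-fold (log2 fold change 0.64, SE 0.218, edgeR adjusted p = 0.0384), and every 3 hr control, from 19.5 CPM upwards, was above every 1 hr control. *Thbs3* rose 1.23-fold (0.30, SE 0.0933, adjusted p = 0.0276) and *Thbs2* 1.46-fold (0.55, SE 0.215, adjusted p = 0.0669), while *Ccn2* fell (log2 fold change -0.57, SE 0.224, adjusted p = 0.0657). With 1 hr control replicate 2 included, only the call of *Thbs4* held (0.59, adjusted p = 0.0296), and *Thbs3* was at 0.19 (adjusted p = 0.192). Without 1 hr control replicate 1 or without 3 hr control replicate 3, 1 of these 4 members was called. For *Ccn1* and *Thbs1*, whose 3 hr controls entered their selection, the log2 differences were -0.71 (SE 0.13) and 1.05 (SE 0.175), given without a test. Without 1 hr control replicate 3 the value of *Ccn1* was -0.40.

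Per exonic length, CPM were divided by kilobases of all annotated exons. The study's text describes an analysis of reads in coding regions only, and whether the deposited counts leave out untranslated exons was not tested, so the order of levels rests on full exonic length. On this scale *Ccn1* was the highest member in all 4 groups, at 14.7 ± 3.64 (SD, n = 2) in 1 hr controls, 26.8 ± 0.663 (n = 3) in 1 hr LTP, 9.17 ± 1.03 (n = 3) in 3 hr controls and 32.1 ± 2.70 (n = 3) in 3 hr LTP slices. *Thbs1* was below *Thbs4* and *Thbs3* in the 1 hr controls, at 2.59 ± 0.138 (n = 2), and above both after LTP at 3 hr, at 18.9 ± 1.10 (n = 3). In the 3 hr LTP slices it lay above the range of *Thbs4* (6.50 ± 2.12), whereas after LTP at 1 hr the ranges of *Thbs1* and *Thbs4* overlapped. *Thbs4* had a higher mean than *Thbs3* in every group, and their ranges overlapped only at 3 hr after LTP. In the 3 hr controls *Thbs1* (5.46 ± 1.54, n = 3) lay between them and overlapped both. *Thbs2* and *Ccn2* were below 1 CPM per kb in every library, and only in the 3 hr controls were their ranges apart, with *Thbs2* higher.

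**Figure D3:**
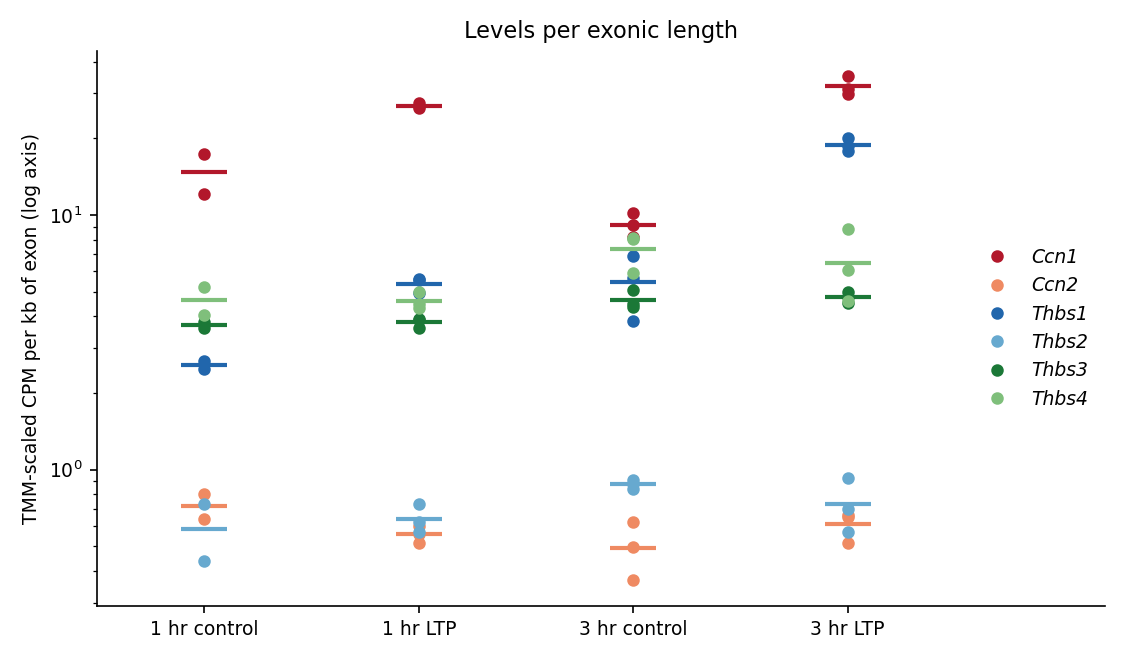
TMM-scaled CPM per kb of exon (logarithmic vertical axis) of the 6 members in the 4 groups; points are libraries without 1 hr control replicate 2 and horizontal dashes are group means. *Ccn1* is highest in each group, from a mean of 9.17 to 32.1, and *Thbs1* moves from 2.59 in 1 hr controls to 18.9 in 3 hr LTP slices.

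Other genes of both families were not called after LTP. *Ccn3*, also known as *Nov*, was the most abundant gene of the family, at 193, 155 and 161 CPM in 1 hr controls and 144, 158 and 151 CPM after LTP, with a log2 fold change of -0.22 (SE 0.0817, edgeR adjusted p = 0.583). At 3 hr it was at -0.15 (SE 0.10, adjusted p = 0.45). *Ccn4* was between 17 and 57 counts per library, with log2 fold changes of -0.04 (SE 0.402, adjusted p = 0.997) at 1 hr and 0.47 (SE 0.195, adjusted p = 0.22) at 3 hr, where its LTP libraries were above its controls. *Comp*, a pentameric thrombospondin, *Ccn5* and *Ccn6* had at most 14 counts in any library and did not pass the filter at either time. Of the 2 family genes tested, 0 were called by edgeR, DESeq2 or limma-voom at either time, and 1 had an unadjusted p under 0.05 at each. Over all genes, 1190 of 17736 had such a p by edgeR at 1 hr and 3540 of 17508 at 3 hr.

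Lists of genes that act with these proteins were drawn up from general knowledge, with earlier results of these data known. They are described by their counts and medians. By edgeR, 1190 of 17736 genes had an unadjusted p under 0.05 at 1 hr and 3540 of 17508 at 3 hr. Over all genes the median was 0.00 at both times, and the shares called were 0.789% at 1 hr and 6.60% at 3 hr. A count of 1 or 2 among 20 to 25 genes at 3 hr is near that share, which rests on 1155 calls at 3 hr that ran from 228 to 2170 when 1 library was left out. Of 20 receptors and binding partners, among them *Cd47*, *Cd36*, *Cacna2d1*, *Lrp1* and integrins, 1 rose at 1 hr and 1 at 3 hr, and the medians were 0.00 and -0.02. Both times the gene was *Adamts1*, a secreted protease that cleaves thrombospondins and is no receptor. *Adamts1* went from 167 ± 3.66 (SD, n = 2) to 231 ± 7.87 CPM (n = 3) at 1 hr (log2 fold change 0.48, SE 0.0665, edgeR adjusted p = 0.00168) and from 255 ± 18.0 to 326 ± 6.45 CPM (n = 3 each) at 3 hr (0.37, SE 0.0654, adjusted p = 0.023). The 3 hr call was lost without 3 hr control replicate 1 (0.32, adjusted p = 0.111), and with animal as a replicate block 3 genes of the list were called at 3 hr. Of 12 other matricellular genes, 0 were called at 1 hr by edgeR, DESeq2 or limma-voom, with 4 at an unadjusted p under 0.05, and 1 rose at 3 hr, *Tnr*, a tenascin of perineuronal matrix (0.46, SE 0.0662, edgeR adjusted p = 0.00974; 3 genes of the list with the replicate block). Their medians were 0.03 and 0.05.

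Upstream pathways for which *Ccn1* and *Ccn2* are known targets were described in the same way. Of 25 tested genes of the Hippo pathway and YAP/TAZ targets, 0 were called at 1 hr by edgeR, DESeq2 or limma-voom, with 1 at an unadjusted p under 0.05, and the median was 0.01. At 3 hr *Tead1*, a DNA-binding partner of YAP, rose (log2 fold change 0.66, SE 0.111, edgeR adjusted p = 0.0183) and *Tead3*, of the same family, fell (-0.70, SE 0.182, adjusted p = 0.0755), with a median of 0.00. The call of *Tead1* was lost without 3 hr control replicate 2 (adjusted p = 0.113), and that of *Tead3* in 5 of 14 alternatives. *Ccn1* and *Ccn2* themselves were kept out of this list.

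Of 26 tested SRF/MRTF factors and targets, 8 rose at 1 hr, with a median of 0.07, and 9 rose and 1 fell at 3 hr, with a median of 0.24. The 8 genes at 1 hr did not include the actin and smooth muscle genes of the list. *Tagln* had a 1 hr log2 fold change of -0.80 (SE 0.2), *Acta2*, also a mural marker, of -0.46 (SE 0.149) and *Myl9* of -0.42 (SE 0.128). *Cnn2* was at -0.32 (SE 0.234), and the actins *Actb* and *Actg1* were at 0.05 and -0.06. At 3 hr *Tagln*, *Acta2*, *Myl9* and *Cnn2* were at 0.03, 0.17, -0.02 and -0.16. None of these was called, and they are named after their values were seen. *Egr2* (2.47, SE 0.0863), *Fos* (1.97, SE 0.0773), *Junb* (1.72, SE 0.112), *Fosb* (1.41, SE 0.0883) and *Egr1* (1.31, SE 0.0895) had the smallest p at 1 hr, with edgeR adjusted p from 5.44e-10 to 8.12e-07. At 3 hr these were *Fos* (1.48, SE 0.0828), *Egr2* (1.40, SE 0.146), *Junb* (0.80, SE 0.0984), *Fosb* (1.17, SE 0.178) and *Vcl*, a focal adhesion gene (0.45, SE 0.0647), with adjusted p from 0.000109 to 0.0125.

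In a list of 21 TGF-beta signaling genes, 1 rose at 1 hr, and 2 rose and 1 fell at 3 hr, with medians of 0.05 and 0.09. *Smad7*, an inhibitory Smad, rose at 1 hr (0.61, SE 0.0933, edgeR adjusted p = 0.00368; 2 genes of the list with the replicate block). This call was lost in 2 of 15 alternatives, without 1 hr control replicate 1 (adjusted p = 0.152) and with all 6 libraries and the replicate block. At 3 hr *Inhba*, which encodes an activin subunit, rose from 12.9 ± 0.242 to 26.3 ± 2.64 CPM (n = 3 each; 1.04, SE 0.0874, adjusted p = 0.00102), *Tgif1*, a corepressor of Smads, rose (0.48, SE 0.113, adjusted p = 0.0549) and *Id3* fell (-0.38, SE 0.0912, adjusted p = 0.0575). The last 2 calls were lost when any 1 of the 3 hr controls was left out.

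**Figure D4:**
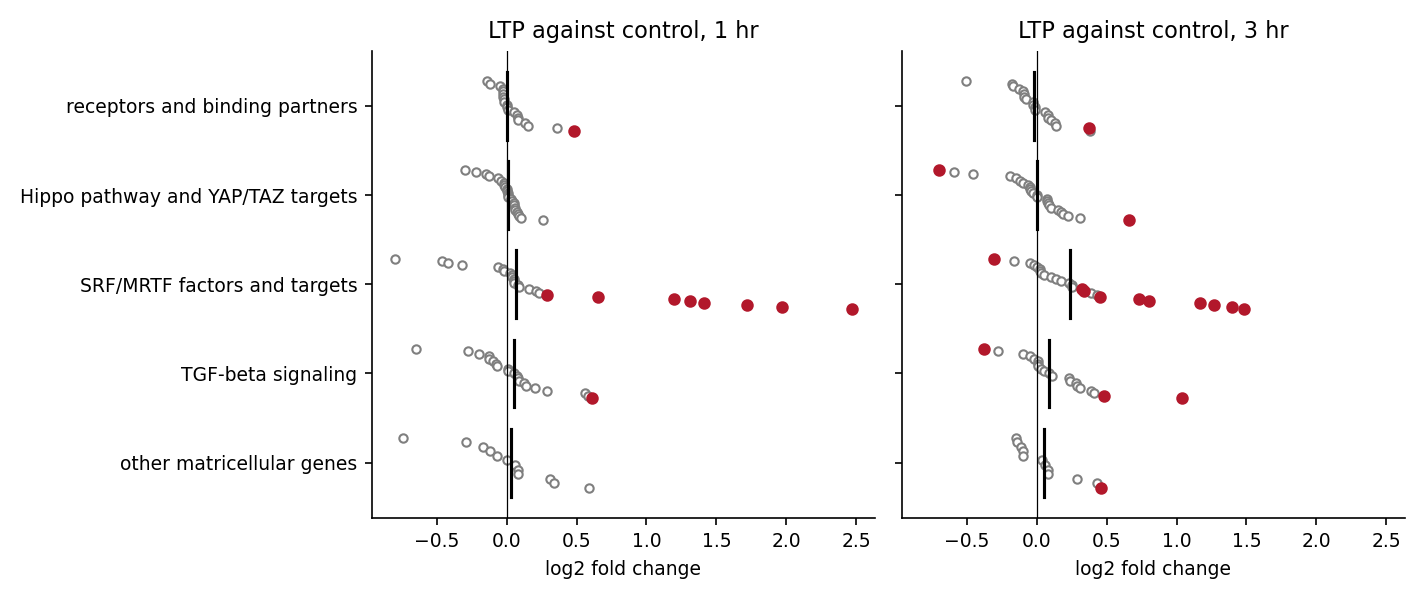
Log2 fold change of LTP against control at 1 hr (left) and 3 hr (right) for the genes of 5 lists; each point is a gene, filled points passed an adjusted p of 0.1 and a fold change of 1.2, and vertical bars are list medians. The SRF/MRTF list holds 8 genes called higher at 1 hr and 9 at 3 hr, and the other lists hold at most 3 called genes at either time.

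Bulk slices hold many cell types, and fewer cells of a type and less RNA per cell cannot be told apart. Neuron, astrocyte, oligodendrocyte, microglia, endothelial, mural and fibroblast markers were all counted in all 12 libraries, and so were the 4 dentate granule cell markers (169 to 288 CPM summed), although the dentate gyrus had been trimmed. The sums at 1 hr are those of the fitted libraries, and 1 hr control replicate 2 is given where it lies outside the range of the other 1 hr controls. The 6 endothelial markers summed to 102 to 110.3 CPM in 1 hr controls and 86.8 to 91.4 CPM in 1 hr LTP slices, and to 89.9 to 93.8 and 90.0 to 108 CPM at 3 hr. At 1 hr 0 of the 6 had a log2 fold change above 0 (median -0.22), with 3 at an unadjusted p under 0.05 and 0 called by edgeR. Beside this and the marker counts below, 1190 of 17736 genes had an unadjusted p under 0.05 by edgeR at 1 hr and 3540 of 17508 at 3 hr. Mural cell markers summed to 202 to 207 and 176 to 193 CPM at 1 hr and to 148 to 155 and 149 to 154 CPM at 3 hr, with 1 of the 7, *Myh11*, lower at 1 hr (-0.68, SE 0.142, edgeR adjusted p = 0.0465, lost in 6 of 15 alternatives). *Myh11*, a smooth muscle myosin gene, is named after its values were seen. The 1 hr control replicate 2 was at 193 CPM, level with the highest 1 hr LTP library. Fibroblast markers summed to 20.2 to 35.5 and 16.5 to 22.4 CPM at 1 hr and to 21.4 to 30.8 and 14.7 to 24.0 CPM at 3 hr. Of these 6 markers 0 had a log2 fold change above 0 at either time, with medians of -0.51 at 1 hr and -0.42 at 3 hr, 3 and 2 of them at an unadjusted p under 0.05 and 0 called by edgeR. The 4 oligodendrocyte markers summed to 4226 to 5148 CPM in controls and 4985 to 6015 CPM after LTP at 1 hr, where 4 of 4 had a log2 fold change above 0 (median 0.22) and 3 of 4 an unadjusted p under 0.05, and 0 were called by edgeR. The part of these marker shifts in the LTP differences of the members was not tested. Between the controls, with the members' time differences, 5 of 7 mural, 4 of 5 microglia, 3 of 6 endothelial, 2 of 5 neuron, 1 of 6 astrocyte and 1 of 6 fibroblast markers fell. Of 4 oligodendrocyte markers 2 rose, and of 5 CA1 and CA3 pyramidal markers 2 rose and 1 fell, beside the 16.8% of all genes called lower and 16.1% called higher there. Microglia markers summed to 246 to 262 CPM in the fitted 1 hr controls, 233 CPM in 1 hr control replicate 2 and 173 to 199 CPM in the 3 hr controls, and oligodendrocyte markers reached 5786 to 7115 CPM in the 3 hr controls. The part of these shifts in the control differences of *Ccn2*, *Thbs2*, *Thbs3* and *Thbs4* was not tested.

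The genes most like each member over the 12 libraries were ranked by the Pearson correlation of log2 CPM. This ranking is a description, because libraries of a group share treatment and time. For *Ccn1* these were *Rasl11a* and *Apold1* (r = 0.96 each), then *9530059O14Rik*, *Zfhx4* and *Zkscan5* (0.95 each). For *Thbs1* they were *Tpbg* (r = 0.98), *Pde4b*, *Cyp1b1* and *Gem* (0.97 each) and *Il6* (0.96). The lists of *Ccn1* and *Thbs1* changed when Spearman's rho was used, as given at the end. The other members had *Acvr2a* (0.88), *Zfp760* (0.87) and *Phtf1os* (0.86) for *Ccn2*, *Samm50* (0.89), *Coa6* and *Hist1h2bb* (0.88 each) for *Thbs2*, *Pxdn*, *Cpsf1* and *Dennd6b* (0.96 each) for *Thbs3*, and *Psmb8*, *Trim8* and *Rab11b* (0.95 each) for *Thbs4*. None of the nearest genes was another member. Between members the highest r was 0.70, of *Thbs3* with *Thbs4*, followed by 0.60, of *Ccn1* with *Thbs1*, and the lowest was -0.66, of *Ccn2* with *Thbs4* (n = 12 libraries).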

How the data were processed

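Total RNA was depleted of ribosomal RNA, made into stranded libraries and, per the study's methods, aligned with STAR to mm10. The authors deposited unnormalized gene counts, 1 table per time point. Totals ran from 37118382 to 50815001 counts per library. A floor of 3 counts, which covers counting error only, corresponded to 0.0584 to 0.0791 CPM. The counting's use of strand and of reads with several alignments is not given in the sources used here. Of 41091 Ensembl IDs, 40217 matched GENCODE M21, which gave symbols, positions and exonic lengths. Genes that are not protein coding held from 3.73% to 5.97% of the counts of a library, so the tables are not restricted to protein coding genes.

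Counts were tested with edgeR 4.0.16 (quasi-likelihood F test, filterByExpr, TMM, Benjamini-Hochberg over all genes tested) in R 4.3.3, and tables were made in Python 3.11.15. The thresholds (adjusted p under 0.1, fold change over 1.2), the separate fit per time point and the removal of 1 hr control replicate 2 follow the study's methods. The methods name no animal term, and none was used in the main fits. This left 5 libraries at 1 hr and 6 at 3 hr. Controls of the 2 times and the difference between the LTP effects were fitted in 1 model of the 4 groups with 11 libraries. SE was derived from the F statistic, and 0.1 CPM was added before the log2 ratios within animals. The procedure was tested on simulated data.

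LTP and control libraries with the same number come from the same animal at a time point, per the labels. Deviations of paired libraries from the group means correlated with r from -0.156 to 0.218 over 18240 genes, and animal as a block was an alternative. Other alternatives were DESeq2 1.42.0, limma-voom (limma 3.58.1), other scalings, no filter, all libraries and leaving out each library. Replicates of a group differed by more than counting error (chi-square per degree of freedom from 9.49 to 85.6).

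The members and the lists were chosen with earlier results of these data known. Named genes were the members, their family genes, at most 5 called genes per list and time with the smallest p, and the 3 genes (5 for *Ccn1* and *Thbs1*) with the highest r among those with a mean of at least 1 CPM. Genes named after their values were seen are marked as such. Protein sequences were not used here.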

Additional observations from a re-analysis of the deposited data

Results flagged for a closer look

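*Ccn2* was lower after LTP than in the control of the same animal in 3 of 3 animals at 1 hr, with a mean log2 ratio of -0.25 that includes the control of animal 2, which was left out of the fits, and higher in 3 of 3 animals at 3 hr, with a mean of 0.30. The ratios at 1 hr were -0.49, -0.17 and -0.08. Those of 3 hr were 0.07, 0.39 and 0.45. The ratio of 0.07 came from 82 counts in each library, and that of -0.08 from 77 control and 73 LTP counts. The members and *Ccn3* were searched for such a change of sign, and its share over all genes was not determined. The difference between the time points was not tested, since it includes the 3 hr contrast, and the counts behind it were 54 to 89 per library.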

How the results depend on the processing

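The 1 hr calls of *Ccn1* and *Thbs1* kept their direction and their side of the thresholds under all 15 alternatives. Leaving out 1 library gave *Ccn1* from 0.64 (without 1 hr control replicate 1) to 1.15, and *Thbs1* from 1.01 to 1.12. With the replicate block the paired fit gave 0.91 (adjusted p = 4.54e-05) for *Ccn1* and 1.03 (adjusted p = 2.49e-06) for *Thbs1*, and with all 6 libraries 0.78 and 0.97. The block changed no call of a member, and moved the counts over all genes from 140 to 206 at 1 hr and from 1155 to 1662 at 3 hr. Over all genes, leaving out 1 library gave from 69 (without 1 hr control replicate 1) to 344 calls at 1 hr and from 228 (without 3 hr control replicate 2) to 2170 (without 3 hr LTP replicate 2) at 3 hr, so the shares over all genes move with them, and 347 were called at 1 hr without the filter.

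The control comparison depended on single libraries. Leaving out 1 library gave *Ccn1* from -0.90 to -0.40, *Ccn2* from -0.75 to -0.36, *Thbs2* from 0.27 to 1.00, *Thbs3* from 0.24 to 0.37 and *Thbs4* from 0.52 to 0.87, and from 1 to 4 of the 4 tested members were called. With all 12 libraries 1 was called, with *Ccn2* at -0.45 (adjusted p = 0.119), *Thbs2* at 0.44 (adjusted p = 0.106) and *Thbs3* at 0.19 (adjusted p = 0.192). The difference between the LTP effects ran from 0.65 to 1.16 for *Ccn1* and from -0.82 to -0.08 for *Thbs2* without 1 library. It ran from 0.53 to 0.93 for *Thbs1* and from -0.46 to 0.02 for *Thbs4*, and that of *Thbs3* was 0.14 with all 12 libraries. The causes were not tested, apart from the removal of a library itself. Of the other gene calls, those of *Id3* and *Tgif1* at 3 hr were lost in 4 and 3 of 14 alternatives. Of the 5 genes most like *Thbs1*, 5 were shared without 1 hr control replicate 2 and 0 by Spearman's rho, and of those of *Ccn1* 2 in either case. Depth limits *Ccn2*, *Ccn4* and the family genes with at most 14 counts.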
